A study of Mus musculus with 2 samples.

Results

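Collagen chains are the genes described here. Members were all rows of the deposited gene tables whose Ensembl mouse gene maps to a protein-coding symbol of the form Col, number, a, number. The rule found 44 chains among 21474 protein-coding genes, and 43346 Ensembl genes stood in the tables. By the supramolecular form they build, 11 were fibrillar chains, 9 were basement membrane chains and 24 were other chains. The RNA came from the adrenal gland of 1 adult female C57BL/6J mouse aged 10 weeks, with no engineered allele and no treatment named in the labels. It was read as 2 technical replicate libraries of polyadenylated RNA, of which replicate 2 is dated to 2015 by the labels, which place it outside the earlier publication of the data. There is therefore 1 group and no contrast of conditions, and every difference given below is between libraries of the same sample. The date of a library and the library itself cannot be told apart, and no error covers differences between animals. In bulk RNA, fewer cells of a type and less RNA per cell cannot be told apart either.

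A collagen is a trimer of chains whose helical part repeats glycine, any residue and any residue, because only glycine fits at the axis of the triple helix. Fibrillar chains are trimmed outside the cell and pack into fibrils that bear tension. Type IV chains keep their ends and join into the sheet of the basement membrane, while other families decorate fibrils, form beaded filaments or span the cell membrane. The adrenal gland is enclosed by a fibroblast capsule, and its cortical cords are separated by a dense bed of capillaries, each with its own basement membrane.

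The repeat is visible in the coding sequence of every member. In the longest coding transcript of each gene, all 44 chains had a run of at least 10 glycine codons, which begin with GG, placed at 1 codon in 3 without a break. Only 54 of the other protein-coding genes among 21584 with a complete coding sequence had such a run, so 44 of 98 genes with it were members. The longest unbroken run was 344 repeats, in Col3a1, and the median was 338 in fibrillar chains, 42.0 in basement membrane chains and 48.5 in the others. The helix of type IV chains is known to be interrupted. Below are the first 90 bases of the longest run of 5 chains that carry the results, from GENCODE M21 transcripts on GRCm38, with the glycine codons at the repeat in capitals.
Col5a3: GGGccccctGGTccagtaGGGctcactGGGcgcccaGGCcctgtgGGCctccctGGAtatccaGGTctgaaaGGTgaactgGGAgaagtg
Col4a2: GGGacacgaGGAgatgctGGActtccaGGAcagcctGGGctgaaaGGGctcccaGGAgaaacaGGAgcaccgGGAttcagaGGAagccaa
Col4a1: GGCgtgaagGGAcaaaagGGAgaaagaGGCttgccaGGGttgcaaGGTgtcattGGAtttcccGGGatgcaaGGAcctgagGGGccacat
Col3a1: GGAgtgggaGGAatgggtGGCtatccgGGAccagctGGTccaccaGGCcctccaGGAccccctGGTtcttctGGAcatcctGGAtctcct
Col8a1: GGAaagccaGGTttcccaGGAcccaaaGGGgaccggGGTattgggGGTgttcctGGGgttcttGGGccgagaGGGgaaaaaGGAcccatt
These stretches lie on chromosomes 9, 8, 8, 1 and 16. The repeat fixes G at the first and second base of 1 codon in 3, and the last base is free. Over the last base of all codons in a stretch, GC content was 43.3% for Col5a3 and 20% for Col3a1. Over whole coding sequences the median GC content of the 44 chains was 58.9%, against 51.9% over all protein-coding genes, although GC content at the last base of the codon was lower in the chains, with a median of 49.3% against 59.0%.

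Depth and composition differed between the libraries. Rounded expected counts came to 17376660 in replicate 2, against 28267651 in replicate 1, of which 15.3% and 53.1% belonged to mitochondrial genes and their nuclear copies. Collagen chains held 55309 counts in replicate 2, which is 0.376% of its 14716667 nuclear counts. In replicate 1 they held 9987 counts, or 0.0753% of 13260900. Summed collagen TPM, a level scaled for transcript length and to a fixed sum per library, was 823 in replicate 2, against 67.9 in replicate 1. Rescaled over nuclear genes alone, the sums were 1336 TPM in replicate 2 and 388 TPM in replicate 1. Of the markers of the labelled tissue, 6 cortex genes summed to 35337 TPM in replicate 2 and 7060 TPM in replicate 1. In the same order 5 chromaffin genes summed to 4492 TPM and 339 TPM. These sums hide low members in replicate 1, where Chgb held 303 TPM of the chromaffin sum. There Chga had 26.0 TPM, Th 6.89 TPM and Dbh 2.98 TPM. Pnmt had 0 counts in replicate 1 and 4291 in replicate 2. The lowest cortex gene in replicate 1 was Nr5a1, at 6.61 TPM. Of 4 kidney markers, Umod, Slc34a1 and Miox had no count in either library.

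At a TPM of at least 1, 28 chains were present in replicate 2 and 18 in replicate 1, and all 18 were among the 28. That is 18 of 44 chains present in both, beside 8774 of 21474 protein-coding genes, or 40.9%. Over nuclear genes alone the number in both was 26. No library had a count for Col2a1 and Col9a1, chains of cartilage fibrils. The limit a count of 0 allows is 3 counts, and 7 chains stood at or under it in both libraries. TPM as deposited was higher in replicate 2 for 41 chains. The number over all genes was not taken, so this count cannot be read as a trait of the chains. With counts scaled to library totals, the median log2 ratio of replicate 2 over replicate 1 over all genes tested was 1.24. Over nuclear genes alone the direction turned for some of the 41 chains. Col3a1 then had 53.8 TPM in replicate 2 and 79.9 TPM in replicate 1, and Col4a4 had 3.78 TPM and 6.46 TPM. Others stayed higher in replicate 2, such as Col4a1, at 263 TPM in replicate 2 and 42.2 TPM in replicate 1.

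**Figure D1:**
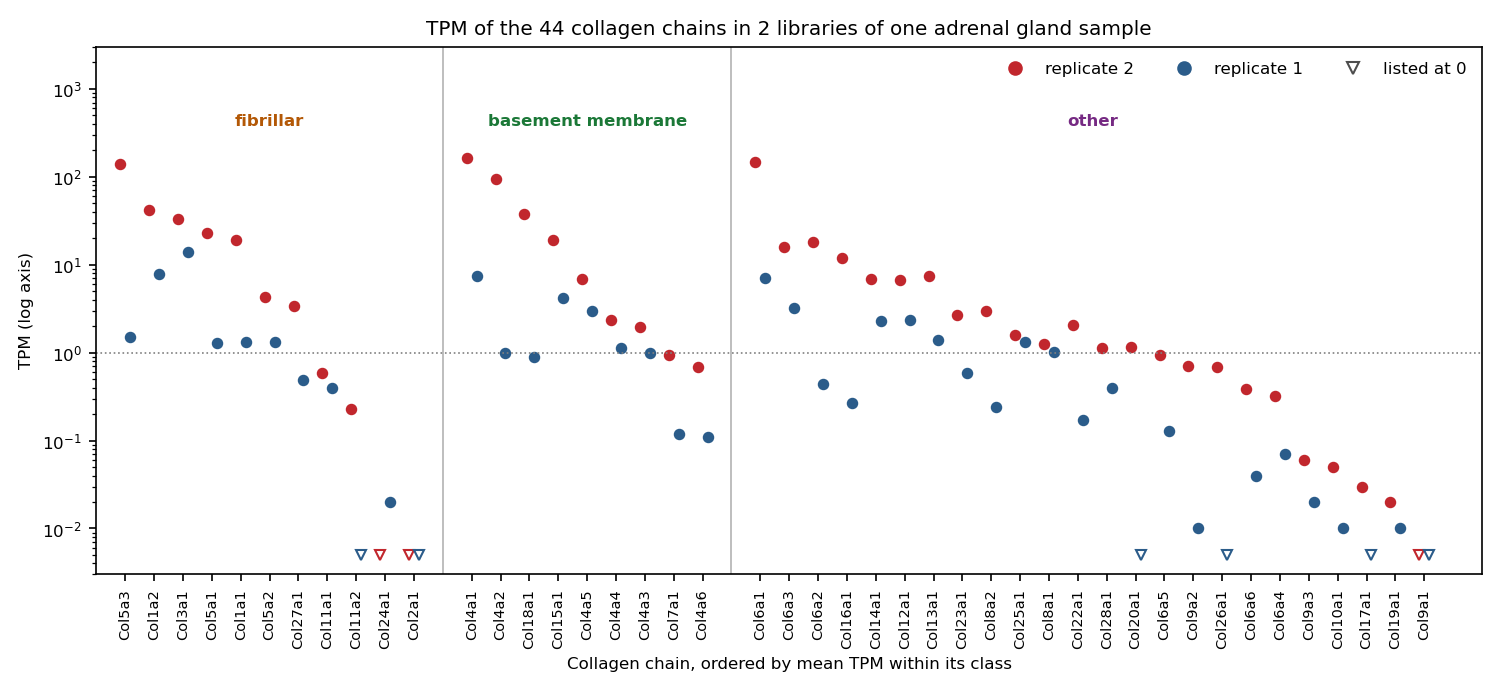
TPM of each of the 44 collagen chains on a log axis, in replicate 2 (red, left) and replicate 1 (blue, right), grouped by class and ordered by mean TPM, with open triangles for values listed at 0 and a dotted line at 1 TPM. The 4 highest points of replicate 2 are Col4a1, Col6a1, Col5a3 and Col4a2, and the highest of replicate 1 is Col3a1.

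The leading chains differed between the libraries. In replicate 2 the order was Col4a1, Col6a1, Col5a3, Col4a2 and Col1a2, and the first 4 held 66.2% of collagen TPM. In replicate 1 it was Col3a1, Col1a2, Col4a1, Col6a1 and Col15a1, and the first 4 held 53.3%. The 10 leading chains of each library shared 6 genes. Among neighbours in these orders, the deposited posterior intervals overlapped in 3 of 9 pairs in replicate 2 and in 6 of 9 pairs in replicate 1. The orders are by TPM and the intervals belong to the posterior mean, so their overlap does not measure how certain the orders are. The rank correlation of TPM between the libraries was 0.85 over the 44 chains (Spearman's rho) and 0.66 over all 14358 genes tested. The first value includes 9 chains with too few counts to be tested and the second leaves such genes out. The values therefore cannot be compared directly. Both are descriptions across genes that share the same libraries.

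Fibrillar chains held 32.2% of summed collagen TPM in replicate 2 and 41.4% in replicate 1, or 36.8 ± 6.51% (SD, n = 2 technical replicates). Basement membrane chains held 39.8% in replicate 2 and 27.7% in replicate 1, or 33.7 ± 8.55%. Other chains held 28.0% and 30.9% in the same order, or 29.4 ± 2.04%. So the basement membrane class was the largest in replicate 2 and the smallest in replicate 1, while fibrillar chains held more than the other chains in both libraries. Type IV chains took 32.7% in replicate 2 and 20.01% in replicate 1, and type VI chains took 22.2% and 16.02%.

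**Figure D2:**
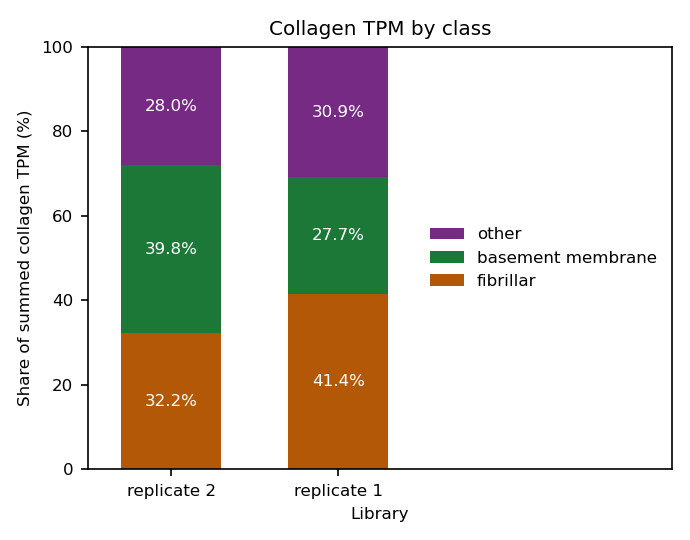
Share of summed collagen TPM (percent) held by fibrillar, basement membrane and other chains in replicate 2 (left) and replicate 1 (right). Basement membrane chains held 39.8% in replicate 2 and 27.7% in replicate 1.

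Among fibrillar chains, Col5a3 showed the widest gap. This chain of type V collagen, which helps to set fibril diameter, had 140 TPM in replicate 2 and 1.5 TPM in replicate 1. Col3a1, the homotrimeric chain of type III collagen found in pliable tissue, had 33.2 TPM in replicate 2 and 14.0 TPM in replicate 1. The 2 chains of type I collagen, the main tensile collagen, were Col1a2 at 41.5 TPM in replicate 2 and 7.81 TPM in replicate 1, and Col1a1 at 19.0 TPM and 1.32 TPM. Col1a1 was thus the lower of the pair in both libraries, although the type I trimer is known to hold 2 α1 chains and 1 α2 chain.

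The other type V chains were Col5a1, at 23.2 TPM in replicate 2 and 1.29 TPM in replicate 1, and Col5a2, at 4.33 TPM and 1.31 TPM. Col27a1, a fibrillar chain best known from cartilage, had 3.41 TPM in replicate 2 and 0.49 TPM in replicate 1. The type XI chain Col11a1 had 0.58 TPM in replicate 2 and 0.40 TPM in replicate 1. Its partner Col11a2 had 0.23 TPM from 12 counts in replicate 2 and no count in replicate 1. Col24a1 had 0 counts in replicate 2 and 1 count in replicate 1. Col3a1 lies at chr1:45311538-45349706 on the plus strand and Col5a3 at chr9:20770050-20815067 on the minus strand of GRCm38.

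Basement membrane chains were led by Col4a1, at 162 TPM in replicate 2 and 7.38 TPM in replicate 1, and Col4a2, at 95.5 TPM and 0.98 TPM. These 2 chains form the type IV trimer of nearly all basement membranes, vessels included. Col4a5, a chain of the specialised type IV networks, had 6.85 TPM in replicate 2 and 2.98 TPM in replicate 1. Its neighbour Col4a6 had 0.68 TPM and 0.11 TPM. Col4a4 had 2.33 TPM in replicate 2 and 1.13 TPM in replicate 1, and Col4a3 had 1.97 TPM and 1.00 TPM. Both belong to the network best known from the kidney glomerulus, and the 4 kidney markers summed to 0.38 TPM in replicate 2 and 0.14 TPM in replicate 1.

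Col18a1 and Col15a1, the multiplexins, sit at the basement membrane of vessels and release the fragments endostatin and restin. Col18a1 had 37.4 TPM in replicate 2 and 0.89 TPM in replicate 1. Col15a1 had 19.3 TPM in replicate 2 and 4.18 TPM in replicate 1, and was among the leading chains of that library. Col7a1, the anchoring fibril chain of skin, had 0.94 TPM from 77 counts in replicate 2 and 0.12 TPM from 3 counts in replicate 1.

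The 6 type IV genes stand in 3 pairs that are transcribed away from each other. Starts annotated in GENCODE M21 lay 21 bases apart for Col4a1 and Col4a2 on chromosome 8, 72 bases apart for Col4a3 and Col4a4 on chromosome 1 and 1309 bases apart for Col4a5 and Col4a6 on the X chromosome. The RefSeq promoter windows (250 bases before to 50 after the start, GRCm38.p6) of the first pair are shown because they overlap. Col4a1 is at chr8:11312777-11313076 on the minus strand and Col4a2 at chr8:11312555-11312854 on the plus strand. The 78 bases that both windows hold, on opposite strands, are in capitals.
Col4a1: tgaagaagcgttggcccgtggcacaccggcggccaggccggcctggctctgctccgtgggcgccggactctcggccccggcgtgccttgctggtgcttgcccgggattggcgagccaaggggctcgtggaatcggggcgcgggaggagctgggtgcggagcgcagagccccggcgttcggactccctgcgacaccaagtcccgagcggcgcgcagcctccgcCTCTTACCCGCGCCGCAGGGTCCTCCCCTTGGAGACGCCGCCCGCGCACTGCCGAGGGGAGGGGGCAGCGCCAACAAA
Col4a2: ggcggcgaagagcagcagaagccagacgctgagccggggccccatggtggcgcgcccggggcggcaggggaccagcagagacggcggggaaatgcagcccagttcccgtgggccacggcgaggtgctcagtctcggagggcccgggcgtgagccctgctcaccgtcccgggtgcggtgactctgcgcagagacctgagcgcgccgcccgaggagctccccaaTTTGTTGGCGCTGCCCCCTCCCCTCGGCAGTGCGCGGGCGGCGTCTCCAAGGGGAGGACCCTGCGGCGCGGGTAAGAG
GC content was 74.0% in the Col4a1 window and 73.7% in the Col4a2 window. Both windows held the letters CCAAT and GGGCGG on either strand and neither held TATAAA. RefSeq windows were matched for 35 of the 44 chains, with 38 windows in all. Of these, 60.5% held GGGCGG or CCGCCC, against 35.7% of all 32841 windows. CCAAT or ATTGG stood in 34.2% of member windows and 37.4% of all windows, and TATAAA or TTTATA in 13.2% and 13.6%. None of the motifs contains another, and a match is a description of the window only. The median GC content was 59.8% in member windows and 52.7% in all windows.

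Chains of the same type were compared by their TPM ratio. Col4a1 stood at 1.70 times Col4a2 in replicate 2 and at 7.53 times in replicate 1. Col4a3 stood at 0.85 times Col4a4 in replicate 2 and 0.88 times in replicate 1, the smallest difference between the libraries among the 8 pairs with a ratio in TPM as deposited. Col4a5 was the higher of its pair in both libraries, at 10.1 times Col4a6 in replicate 2 and 27.1 times in replicate 1. Col1a1 stood at 0.46 times Col1a2 in replicate 2 and 0.17 times in replicate 1. Col5a1 stood at 5.36 times Col5a2 in replicate 2, whereas the chains were about equal in replicate 1, at 0.98 times.

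Type VI and type VIII pairs were read in the same way. Col6a1 was the higher of its pair in both libraries, at 8.02 times Col6a2 in replicate 2 and 15.9 times in replicate 1. Col6a3 stood at 0.86 times Col6a2 in replicate 2 and 7.30 times in replicate 1. With 1 effective length per gene in both libraries, its log2 ratio to Col6a2 was 0.31 in replicate 2 and 2.12 in replicate 1, so Col6a3 was then the higher in both. Col8a1 stood at 0.43 times Col8a2 in replicate 2 and 4.21 times in replicate 1, so the higher chain changed between libraries. GC content of the counted transcripts was 56.7% for Col6a1 and 59.0% for Col6a2, and 46.8% for Col8a1 and 59.1% for Col8a2. No ratio was formed for Col9a1 over Col9a2 or Col11a1 over Col11a2, since at least 1 chain had 0 counts in a library.

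**Figure D3:**
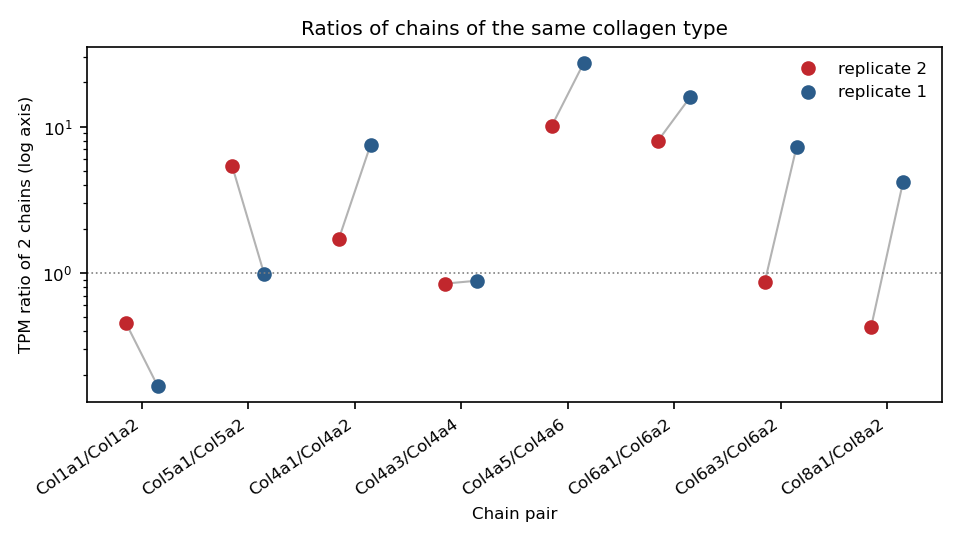
TPM ratio of the first to the second chain of 8 pairs on a log axis, in replicate 2 (red, left) and replicate 1 (blue, right), with a dotted line at equal levels. Col4a3/Col4a4 lies at 0.85 and 0.88, whereas Col8a1/Col8a2 lies at 0.43 in replicate 2 and 4.21 in replicate 1.

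Other chains were led by the type VI family, whose trimers form beaded filaments around cells. Col6a1 had 147 TPM in replicate 2 and 6.98 TPM in replicate 1. Col6a2 had 18.4 TPM in replicate 2 and 0.44 TPM in replicate 1, and Col6a3 had 15.9 TPM and 3.21 TPM. Col6a1 therefore exceeded its partner chains in both libraries. The later members Col6a4, Col6a5 and Col6a6 stayed between 0.32 and 0.95 TPM in replicate 2 and between 0.04 and 0.13 TPM in replicate 1.

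The fibril-associated chains, which attach to the surface of fibrils, were lower. Col16a1 had 11.8 TPM in replicate 2 and 0.27 TPM in replicate 1. Col14a1 had 6.95 TPM and 2.30 TPM, Col12a1 had 6.69 TPM and 2.36 TPM, and Col22a1, known from muscle and tendon junctions, had 2.09 TPM and 0.17 TPM, each in the same order. Col20a1 had 1.15 TPM from 44 counts in replicate 2 and 0 counts in replicate 1. Col9a2 had 0.70 TPM from 24 counts in replicate 2 and 0.01 TPM from 1 count in replicate 1, while its partner Col9a1 had no count.

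Among transmembrane chains, Col13a1, found at cell junctions and at the nerve to muscle synapse, had 7.47 TPM in replicate 2 and 1.40 TPM in replicate 1. Col23a1 had 2.71 TPM in replicate 2 and 0.58 TPM in replicate 1. Col25a1, needed for motor nerves to reach muscle, had 1.59 TPM and 1.31 TPM. The network chains of type VIII, known from vessel walls and the cornea, were Col8a2 at 2.96 TPM in replicate 2 and 0.24 TPM in replicate 1, and Col8a1 at 1.27 TPM and 1.01 TPM. Col28a1 had 1.13 TPM in replicate 2 and 0.40 TPM in replicate 1. The remaining other chains, Col26a1, Col9a3, Col10a1, Col17a1 and Col19a1, ranged between 0.02 and 0.68 TPM in replicate 2 and between 0 and 0.02 TPM in replicate 1.

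Counts were then compared between the libraries. Each gene was tested by a two-sided exact binomial test of its rounded counts given their sum, with TMM-scaled library sizes and Benjamini-Hochberg adjustment over all 14358 genes. A call needed an adjusted p under 0.05 and a ratio of at least 2-fold. The test covers counting error in these libraries, not conditions. With 35 chains tested, 20 were called higher in replicate 2, 3 were called lower and 12 were not called. Over all genes tested, 36.4% were called higher and 27.8% lower. The median log2 ratio of replicate 2 over replicate 1 was 1.45 in the chains and 0.10 in all genes.

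By class, 4 of 8 tested fibrillar chains were called higher and 1 lower, 5 of 9 basement membrane chains were called higher and none lower, and 11 of 18 other chains were called higher and 2 lower. Col5a3 was 30.8-fold higher in replicate 2 (95% exact interval 27.1 to 35.03), with 10257 counts in replicate 2 and 247 in replicate 1. Col4a2 was 27.1-fold higher (23.6 to 31.3), Col18a1 20.1-fold (16.1 to 25.4), Col4a1 6.09-fold (5.78 to 6.42) and Col6a1 5.87-fold (5.48 to 6.30). Col20a1 had the highest log2 ratio, 6.04, which rests on a replicate 1 count of 0. Against the floor of 3 counts it was at least 10.9-fold higher, and the lower bound of its exact interval, which also covers the error of the 44 counts, was 8.47-fold.

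The chains called lower in replicate 2 numbered 3. TPM as deposited was higher in replicate 2 for all 3, and under total-count scaling none was called lower. Rescaled over nuclear genes alone, TPM was lower in replicate 2 for all 3. Total-count scaling without mitochondrial genes and copies called 2 chains lower. The lower direction of these chains therefore depends on the scaling. Of all 14358 genes, total-count scaling called 567 lower, and without mitochondrial genes and copies it called 2978 lower. Col25a1 had the lowest log2 ratio, -1.75, and was 3.37-fold lower with 107 counts in replicate 2 and 267 in replicate 1. Col8a1 was 2.86-fold lower and Col11a1 2.08-fold lower. Col3a1, with 1754 counts in replicate 2 and 1439 in replicate 1, had a log2 ratio of -0.15 and was not called, and Col1a2 stood at 0.64 and was not called.

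Library ratios of the chains followed the GC content of the transcripts that were counted. Tested chains had a median GC content of 54.3% and a range of 46.8 to 62.7%, against a median of 49.9% in all tested genes. Between 45 and 50% GC, 8 chains had a median log2 ratio of -0.47, with 3 called lower and none higher. At 50 to 55% the median of 10 chains was 0.73, at 55 to 60% that of 12 chains was 2.16, and at 60% or more that of 5 chains was 4.76, with all 5 called higher. All genes in these 4 ranges had medians of -0.49, 1.07, 3.38 and 5.16. Of all 583 genes at 60% or more, 559 were called higher and 4 lower. Of all 3742 genes between 45 and 50%, 146 were called higher and 833 lower. Spearman's rho between GC content and log2 ratio was 0.91 across the 35 chains and 0.90 across all genes. These are correlations across genes in a single pair of libraries, and genes are not independent replicates.

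The 5 chains whose stretches are printed above had log2 ratios of 4.94 for Col5a3, 4.76 for Col4a2, 2.61 for Col4a1, -0.15 for Col3a1 and -1.51 for Col8a1. Their coding GC content was 62.6%, 61.5%, 60.4%, 56.9% and 58.3% in that order. It followed the order of the ratios except that Col8a1 stood above Col3a1. These chains were picked, and the correlation of coding GC content with the ratio over all 35 chains is not given. GC content of the counted transcripts, untranslated parts included, was 61.5% for Col5a3, 60.6% for Col4a2, 57.7% for Col4a1, 52.4% for Col3a1 and 46.8% for Col8a1, in the order of the ratios. GC content at the last base of the codon gave a Spearman's rho of 0.59 with the log2 ratio over the 35 chains.

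**Figure D4:**
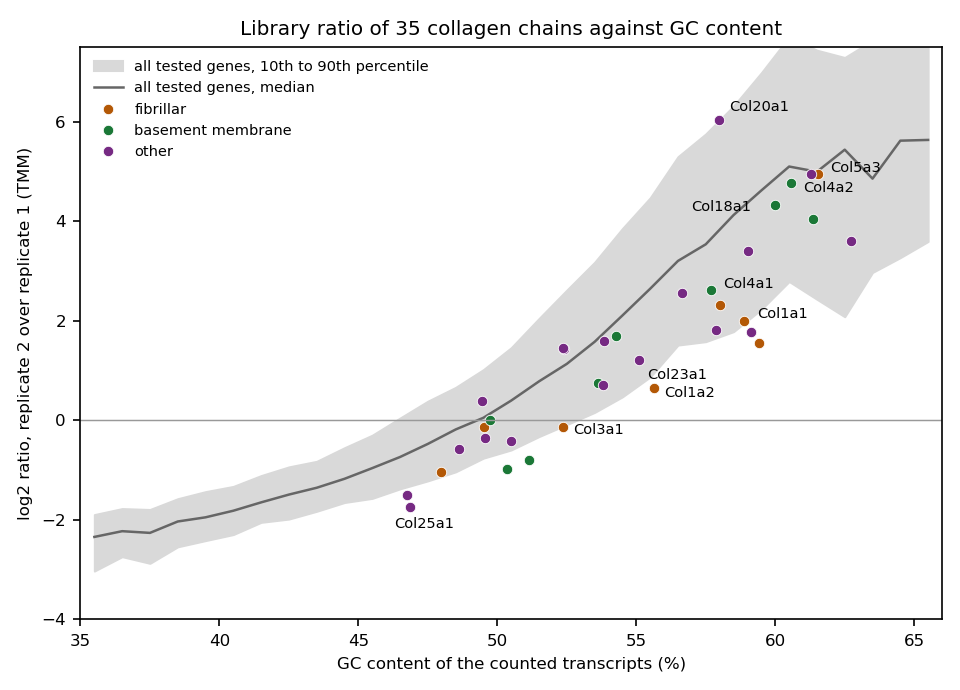
Log2 ratio of replicate 2 over replicate 1 (TMM-scaled counts) of the 35 tested collagen chains against the GC content of their counted transcripts (percent), with colours for class, a grey line for the median and a grey band for the 10th to 90th percentile of all tested genes per percent of GC. Chains with more GC lie higher, as all genes do, and most chains lie below the grey line.

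After the trend with GC content was removed from the ratios of all genes (lowess), none of the chains was called higher, 12 were called lower and 23 were not called. Over all genes 11.1% were then called higher and 10.8% lower. These percentages are not matched for GC content, which was higher in the chains, and ratios spread more widely at high GC content. Before removal, the 10th and 90th percentiles of all genes were 1.58 and 5.75 in the bin from 57% GC. In the bin from 42% GC they were -1.99 and -0.94. The median log2 ratio of the chains was -0.85, against -0.016 in all genes. Of the 20 chains called higher before, 13 were no longer called and 7 were called lower. These 7 were Col4a1 (-1.06), Col5a1 (-1.49), Col1a1 (-2.19), Col13a1 (-1.93), Col27a1 (-2.86), Col23a1 (-1.19) and Col8a2 (-2.54). The 13 whose call ended were Col5a3, Col4a2, Col6a1, Col18a1, Col15a1, Col6a3, Col6a2, Col16a1, Col22a1, Col20a1, Col7a1, Col9a2 and Col6a6, with values between -2.11 and 2.26.

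Of the 3 chains called lower before, Col25a1 stayed called (-1.12), while Col8a1 (-0.86) and Col11a1 (-0.70) did not. Col1a2 (-2.03), Col3a1 (-1.24), Col4a4 (-1.43) and Col4a3 (-1.34) were newly called lower. By class, 5 of 8 fibrillar, 3 of 9 basement membrane and 4 of 18 other chains were called lower. Col1a2 depended on how GC content was taken: it was 55.6% weighted by counts and 46.8% over all annotated transcripts, and with the trend in that second measure removed Col1a2 was the only chain called higher, at 1.30. Under that removal Col3a1 (0.53), Col4a3 (-0.88) and Col4a1 (-0.70) were not called. The wide gaps of Col5a3, Col4a2 and Col18a1 came to -0.32, -0.12 and -0.33 on the log2 scale once the trend was removed.

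**Figure D5:**
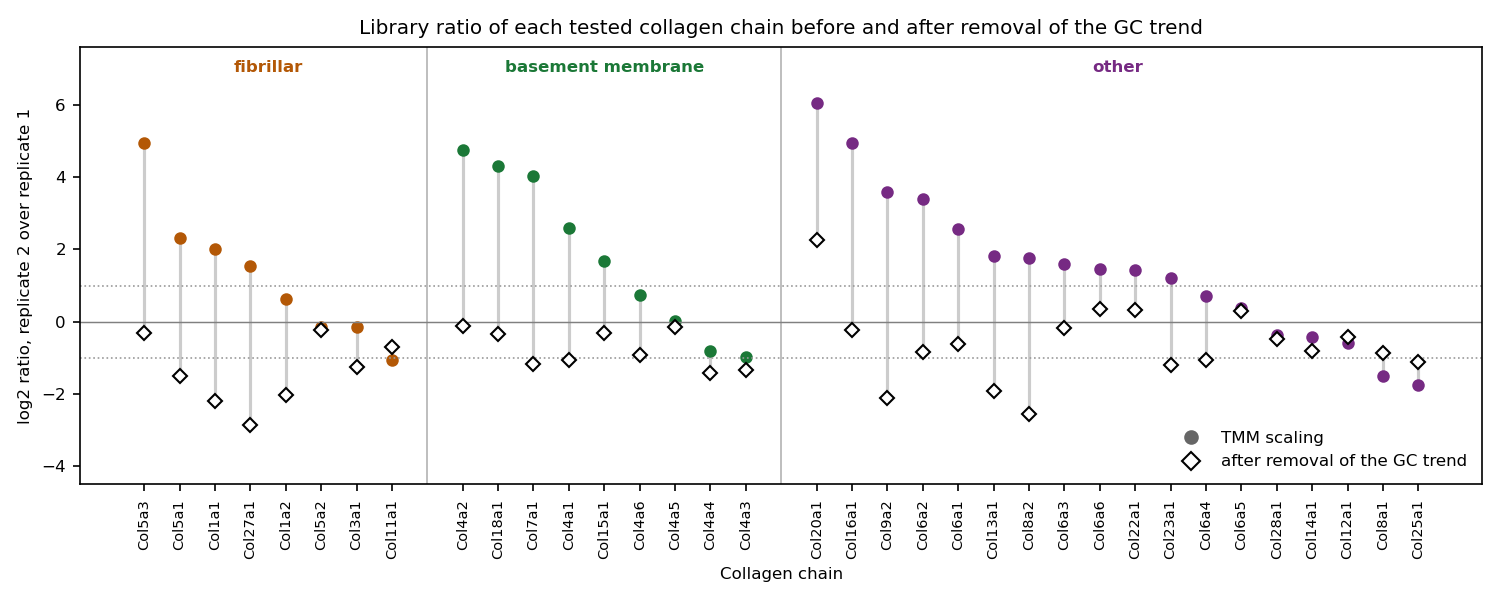
Log2 ratio of replicate 2 over replicate 1 for each of the 35 tested collagen chains before (filled circles) and after (open diamonds) removal of the trend with GC content, by class, with dotted lines at 2-fold. The diamonds of Col1a1, Col27a1 and Col8a2 lie below the lower dotted line, and no chain above the upper line except Col20a1, which was not called.

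Pair ratios came closer between the libraries once the trend was removed, except for Col4a3 over Col4a4. The log2 ratio of Col1a1 over Col1a2 differed between replicate 2 and replicate 1 by 1.44 as deposited and by -0.09 after removal. For Col4a5 over Col4a6 the difference was -1.43 as deposited and 0.08 after removal, and for Col6a1 over Col6a2 it was -0.98 and 0.08. For Col4a3 over Col4a4 it was -0.066 and 0.20, so this pair no longer had the smallest difference. For Col4a1 over Col4a2 it was -2.15 and -0.93, so a difference remained. For Col6a3 over Col6a2 it was -3.08 and -0.61, and a difference remained here too. For Col8a1 over Col8a2 it was -3.29 and 1.66, with the sign turned. For Col5a1 over Col5a2 it was 2.44 and -1.27, also turned.

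Transcript mixtures differed between the libraries. Col15a1 was divided between a transcript of 5172 bases, with 71.6% of its TPM in replicate 2 and 0% in replicate 1, and one of 1755 bases, with 28.4% and 98.9%. Their GC contents were 56.4% and 48.7%. Col5a3 had 97.1% of its TPM on a transcript of 6119 bases in replicate 2 and 55.4% in replicate 1, the rest lying on a transcript of 3927 bases that GENCODE M21 lists as a retained intron. For Col18a1 a transcript of 5063 bases held 95.04% in replicate 2 and 50.9% in replicate 1, and one of 717 bases held 2.28% and 49.1%.

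Col3a1 had 76.5% of its TPM on a transcript of 5564 bases in replicate 2 and 52.7% in replicate 1, and 23.5% and 47.0% on one of 737 bases. In Col6a3, named after its values were seen, a transcript of 9001 bases held 47.3% in replicate 2 and 19.1% in replicate 1, and a retained intron transcript of 646 bases held 43.2% and 75.5%. The main Col4a1, Col4a2, Col5a1, Col6a1 and Col1a1 transcripts held 99.45% or more in both libraries. Among the 33 tested chains with several annotated transcripts and a TPM above 0 in both libraries, the transcript mixture had a higher GC content in replicate 2 in 18, a lower one in 3 and lay within 0.1 percentage points in 12. Of all 9938 genes of this kind, GC content was higher in replicate 2 in 6161 and lower in 1028, and 2749 lay within 0.1 percentage points. All genes of this kind had a median shift of 0.34 percentage points towards higher GC content in replicate 2, and the chains one of 0.30.

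The choice of transcript enters TPM through the effective length. Among 35 tested chains, effective length was more than 1.2-fold longer in replicate 2 in 13 and more than 1.2-fold shorter in 2. The same counts over all genes were not taken, so this split cannot be read as a trait of the chains. Effective length differed 8.85-fold for Col7a1, 2.60-fold for Col16a1, 2.50-fold for Col15a1, 2.38-fold for Col13a1 and 2.20-fold for Col6a3. TPM gaps of those genes therefore differ from their count ratios.

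Of 24 tested enzymes that modify and trim collagen chains, 15 were higher in replicate 2, 3 lower and 6 not called, and after removal of the GC trend 4 were higher, 4 lower and 16 not called. Pcolce, which speeds the removal of the C-terminal propeptide, had 607 TPM in replicate 2 and 11.02 TPM in replicate 1. Plod2, a lysyl hydroxylase, had 168 TPM and 169 TPM, and P4hb, a subunit of prolyl 4-hydroxylase, had 267 TPM and 31.7 TPM. Calls rest on TMM-scaled counts, so they can differ from TPM as deposited. Before removal Pcolce and P4hb were called higher and Plod2 lower. Of 7 cross-linking enzymes, 4 were higher, 1 lower and 2 not called, and after removal 1 was higher and 6 not called. Tgm2, a transglutaminase, had 50.6 TPM in replicate 2 and 0.48 TPM in replicate 1. Pxdn, which cross-links type IV collagen, had 25.8 TPM and 3.77 TPM, and Loxl2, a lysyl oxidase, 13.0 TPM and 2.68 TPM. Tgm2 was called higher before removal, and Pxdn and Loxl2 were not called.

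Of 15 tested partners in the basement membrane, 8 were higher in replicate 2, none lower and 7 not called, and after removal 2 were higher, 2 lower and 11 not called. Sparc, a collagen-binding glycoprotein, had 1712 TPM in replicate 2 and 334 TPM in replicate 1. Hspg2, the core protein of perlecan, had 89.5 TPM and 0.05 TPM, and was still called higher after removal, at a log2 ratio of 3.07. Lamb1, a laminin chain, had 56.8 TPM and 15.2 TPM. Sparc and Lamb1 were not called before or after removal. Of 8 fibril-binding proteoglycans, 2 were higher, 4 lower and 2 not called, and none was called after removal. Bgn, biglycan, had 231 TPM in replicate 2 and 56.3 TPM in replicate 1. Dcn, decorin, had 151 TPM and 83.4 TPM, and Ogn, osteoglycin, 64.5 TPM and 105 TPM. Before removal Ogn was called lower, and Bgn and Dcn were not called.

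Of 9 collagen receptor genes, 4 were higher, 4 lower and 1 not called, and after removal 1 was higher, 1 lower and 7 not called. Itgb1, the β1 integrin chain, had 195 TPM in replicate 2 and 163 TPM in replicate 1. Ddr1, a receptor kinase for collagen, had 23.4 TPM and 0.74 TPM, and Itga1, the α1 integrin chain, 11.4 TPM and 7.03 TPM. Before removal Itgb1 (log2 ratio -1.58) and Itga1 (-1.15) were called lower and Ddr1 (3.07) higher. After removal Ddr1 was called lower, and Itgb1 and Itga1 were not called. Of 10 turnover genes, 6 were higher, 3 lower and 1 not called, and after removal 2 were higher, 1 lower and 7 not called. The inhibitor Timp3 had 350 TPM in replicate 2 and 253 TPM in replicate 1. The inhibitor Timp2 had 58.4 TPM and 14.8 TPM, and Mmp14, a membrane-bound collagenase, 39.1 TPM and 2.45 TPM. Before removal Timp3 was called lower, Timp2 was not called and Mmp14 was called higher. After removal Timp2 was called lower, and Timp3 and Mmp14 were not called.

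Markers of cells that could supply the chains also differed between the libraries. Skeletal muscle markers, 5 of 5 called higher, summed to 322 TPM in replicate 2 and 11.1 TPM in replicate 1. Smooth muscle and pericyte markers, with 5 of 6 higher and 1 lower, summed to 183 TPM and 33.4 TPM. Endothelial markers summed to 353 TPM in replicate 2 and 106 TPM in replicate 1, with 3 of 6 higher and 1 lower. Fibroblast and capsule markers summed to 232 TPM and 140 TPM, with 2 of 7 higher and 2 lower. Adipocyte markers summed to 1992 TPM and 394 TPM, with 2 of 5 higher. Schwann markers summed to 12.2 TPM and 2.77 TPM, with 3 of 5 higher and 1 lower. These sums are of TPM as deposited. Rescaled over nuclear genes alone, fibroblast and capsule markers summed to 377 TPM in replicate 2 and 802 TPM in replicate 1. Endothelial markers then summed to 573 TPM and 607 TPM. Skeletal muscle, smooth muscle and pericyte, adipocyte and Schwann sums stayed higher in replicate 2. Cortex markers had 3 of 6 called higher and chromaffin markers 4 of 5. After removal of the GC trend, those called higher were 3 of 5 skeletal muscle, 3 of 6 smooth muscle and pericyte, 3 of 5 adipocyte, 2 of 6 cortex, 2 of 5 chromaffin, 1 of 5 Schwann, 1 of 7 fibroblast and capsule and 0 of 6 endothelial markers. Those called lower were 1 chromaffin, 1 fibroblast and capsule, 1 cartilage and bone and 1 epidermal marker. The part of these cell types in the collagen ratios was not tested. Cartilage and bone markers summed to 1.12 TPM in replicate 2 and 0.37 TPM in replicate 1, with Comp and Bglap at 0. Epidermal markers summed to 1.69 TPM and 0.58 TPM, with Krt5 at 0 in both. With TPM rescaled over nuclear genes, the cartilage and bone sum was 1.82 TPM in replicate 2 and 2.12 TPM in replicate 1. The epidermal sum was then 2.74 TPM and 3.32 TPM.

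Some counts could hold reads of overlapping genes, since the use of strand in counting is not given in the sources used here. Col4a1 and Col4a2 overlap each other at their starts, on opposite strands, with 12947 and 7462 counts in replicate 2 and 1575 and 204 counts in replicate 1. Slc19a1, which overlaps Col18a1 on the opposite strand, had 239 counts in replicate 2 and 6 in replicate 1. BX649560.1 overlaps Col20a1 on the same strand and had 112 counts in replicate 2 and 66 in replicate 1. Nt5dc1 overlaps Col10a1 on the opposite strand and had 373 and 972 counts in the same order. No chain had a transcript that matched another gene at 95% identity over 50% of its length.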

How the data were processed

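Polyadenylated RNA of 1 sample was measured in 2 technical replicate libraries, grouped by the labels. Expected counts, the estimated fragments per gene or transcript, were taken as deposited by the authors and rounded. TPM values, also from the deposited tables, give levels scaled for length to a fixed sum, and posterior mean TPM and FPKM of the deposited tables served as alternatives. Interval bounds of posterior TPM in the deposited tables were treated as a score and belong to the posterior mean, so they need not contain the TPM. Transcript shares are in percent, per the file headers. Reads were placed on mm10 with GENCODE M4, per the submitters' notes on the files, with aligner and counter not given in the sources used here.

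Only genes whose counts summed to 20 or more entered the test. The binomial test replaced edgeR's and DESeq2's own tests, which have no residual degrees of freedom with 1 library a side, and edgeR 4.0.16 gave TMM and DESeq2 1.42.0 the alternative size factors. Log2 ratios used a prior count of 0.5. The GC trend was a lowess fit (statsmodels 0.14.6, fraction 0.3) on count-weighted GC content of M21 transcripts, and genes were called again after its removal. The test was checked on simulated counts with counting error only. Each gene had the same rate in both libraries apart from known changes, and no GC trend was put in. The check therefore cannot show how the calls or the GC removal behave under the trend seen here. Mitochondrial genes and 16 nuclear copies (BLAST 2.17.0, 90% identity over 50%) were left out where nuclear values are given. Sequences came from GENCODE M21 and from RefSeq promoter windows. Total counts were 17376660 in replicate 2 and 28267651 in replicate 1. Intervals at 95% are exact for independent counts and cover counting error only. Reads of 1 molecule are not independent, so the intervals can be too narrow. They also leave out the error in estimating the expected counts. Named chains were those averaging 1 TPM or more, those of the pairs, those of extreme ratio and those whose call ended or turned. The transcripts named were those of chains averaging 10 TPM or more where a further transcript held 10% or more, and the 3 members of highest mean TPM were named in each companion list. Chains, lists, pairs and this rule were chosen with earlier results of these data known.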

Additional observations from a re-analysis of the deposited data

How the results depend on the processing

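Calls higher in replicate 2, 20 of 35 chains, came to 0 with the GC trend removed, to 1 with the trend in GC content over all annotated transcripts removed, to 0 with GC and length trends removed and to 12 at a fold minimum of 4. Calls lower, 3 chains, came to 12, 8 and 9 under the same 3 removals, to 0 under total-count scaling, to 8 with no fold minimum and to 0 at a fold minimum of 4. Of all 14358 genes, 5232 were called higher and 3987 lower before any removal. Calls over all genes at other fold minima are not given. Under total-count scaling 7769 genes were called higher and 567 lower. Under the 3 removals 1600, 1935 and 1434 genes were called higher and 1549, 1816 and 1558 lower. The median log2 ratio of 1.45 came to -0.85, -0.53 and -0.63 under these removals, to 2.59 under total-count scaling (median of all genes 1.24) and to 1.74 without mitochondrial genes and copies. Among chains called before or after, removing the GC trend turned the sign of Col4a1 (-1.06), Col6a1 (-0.63), Col5a3 (-0.32), Col4a2 (-0.12), Col1a2 (-2.03), Col18a1 (-0.33), Col5a1 (-1.49), Col15a1 (-0.31), Col1a1 (-2.19), Col6a3 (-0.18), Col6a2 (-0.85), Col16a1 (-0.22), Col13a1 (-1.93), Col27a1 (-2.86), Col23a1 (-1.19), Col8a2 (-2.54), Col7a1 (-1.16) and Col9a2 (-2.11). With GC content over annotated transcripts it turned Col4a1 (-0.70), Col6a1 (-0.82), Col4a2 (-0.020), Col18a1 (-0.42), Col5a1 (-1.35), Col15a1 (-0.57), Col1a1 (-1.69), Col6a3 (-0.37), Col16a1 (-0.073), Col13a1 (-2.10), Col27a1 (-2.96), Col23a1 (-1.29), Col8a2 (-2.43), Col7a1 (-0.97) and Col9a2 (-2.12). With length removed too it turned Col4a1 (-0.78), Col6a1 (-0.43), Col5a3 (-0.029), Col1a2 (-1.78), Col18a1 (-0.13), Col5a1 (-1.20), Col15a1 (-0.22), Col1a1 (-1.91), Col6a3 (-0.042), Col6a2 (-0.63), Col16a1 (-0.14), Col13a1 (-1.93), Col27a1 (-2.59), Col23a1 (-0.99), Col8a2 (-2.32), Col7a1 (-0.96) and Col9a2 (-1.98). Under total-count scaling Col11a1 turned to 0.086. Chains called neither before nor after also turned: 3, 5 and 2 under these removals, 7 under total-count scaling and 2 without mitochondrial genes and copies. Removal of the length trend alone turned 1 such chain (Col5a2), DESeq2 size factors 1 (Col4a5) and the absence of a count filter none, and 21, 20 and, of 42 tested, 22 chains were called higher. Over all genes the same settings called 4463, 5118 and, of 19641 tested, 5694 higher. Without replicate 1, 28 chains were detected, and leaving out either library gave 18 to 28. The mean log2 ratio of Col4a3 over Col4a4, -0.21, was 0.12 with posterior mean TPM. With 1 effective length per gene, an alternative chosen after seeing the data, class shares and pair ratios moved, as means over the libraries, by less than the spread between them. The cause of these shifts was not tested. No paired analysis was possible because the libraries form 1 group. Counting error is wide for chains of few counts, with 95% intervals of 6.27 to 94.2-fold for Col7a1 and 2.90 to 731-fold for Col9a2.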
